A study of Mus musculus with 6 samples.

Results

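The genes described here are 42 interferon-stimulated genes, taken from the 18792 genes of a scRNA-seq table of mouse spinal cord cells. They were chosen by name as genes that interferons induce, with earlier results of these data known, and all 42 were in the table. They were divided by function into 8 Ifit and Oas genes, 18 other effectors, 4 transcription factors, 6 sensors of foreign nucleic acid and 6 GTPases and Gbp genes. In the study, WT mice were set against Nd6 mice, whose mitochondrial DNA has a point mutation in mt-Nd6, the gene of a complex I subunit. Mice of each genotype were either non-immunized controls or had EAE, a model of multiple sclerosis induced by immunization with a MOG peptide. Mice were perfused with the transcription inhibitors actinomycin D and triptolide. Spinal cords were dissociated mechanically and digested with collagenase and dispase in the presence of both inhibitors and of the translation inhibitor anisomycin. Cells were loaded for droplet-based 3′ scRNA-seq after debris had been removed. Controls gave 1 library per genotype, and EAE mice gave 2 libraries per genotype.

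Type I interferons act through a receptor made of Ifnar1 and Ifnar2 and assemble ISGF3, a complex with STAT2 and IRF9 that binds interferon-stimulated response elements with repeated GAAA. Type II interferon, or IFNγ, acts through Ifngr1 and Ifngr2 and mainly through elements with the ends TTC and GAA. Ifit and Oas genes are typical targets of ISGF3, and many Gbp genes and immunity-related GTPases respond strongly to IFNγ, although most members can respond to both. In the CNS, microglia, infiltrating myeloid cells and endothelial cells are all known to respond to interferons.

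The response elements are shown first because they are the sequence feature by which members of both kinds are recognized. Promoters of 32 of the 42 members could be matched to RefSeq sequences of the build GRCm38.p6, and 250 bases upstream of each gene's start were searched on both strands. A pair of GAAA repeats with any 2 bases between them, called the GAAA pair here, was present in 17 of 32 members (53.1%) and in 3.46% of 27025 genes. In the windows below, capitals mark only the GAAA pair, or its reverse complement, that lay nearest the start. The windows of Ifit1, Isg15 and Irgm1 hold further such pairs that are not in capitals. The sequence reads 5′ to 3′ along the strand of the gene. They belong to Ifit1 at chr19:34640784-34640833 on the plus strand, Isg15 at chr4:156200855-156200904 on the minus strand, Rsad2 at chr12:26456543-26456592 on the minus strand, Stat2 at chr10:128270256-128270305 on the plus strand, Gbp2 at chr3:142620584-142620633 on the plus strand, Igtp at chr11:58199502-58199551 on the plus strand and Irgm1 at chr11:48871421-48871464 on the minus strand.
Ifit1: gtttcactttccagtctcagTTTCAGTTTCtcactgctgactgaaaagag
Isg15: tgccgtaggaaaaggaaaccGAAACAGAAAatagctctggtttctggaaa
Rsad2: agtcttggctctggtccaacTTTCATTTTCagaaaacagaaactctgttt
Stat2: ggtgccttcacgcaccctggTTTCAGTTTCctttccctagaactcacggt
Gbp2: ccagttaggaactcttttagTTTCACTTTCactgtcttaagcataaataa
Igtp: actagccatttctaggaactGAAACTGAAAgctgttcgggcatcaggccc
Irgm1: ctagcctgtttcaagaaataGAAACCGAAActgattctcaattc

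The last base of the marked motif lay between 15 bases (Irgm1) and 213 bases (Stat2) before the annotated start. The motif was found in members of every functional group, in 5 of 7 matched Ifit and Oas genes (71.4%) and in 4 of 5 matched GTPases and Gbp genes (80%). With a spacing of 3 bases counted as well, 20 of 32 members (62.5%) and 6.01% of all genes had a match, so these motifs did not set the Ifit and Oas genes apart from the GTPases and Gbp genes. TTC and GAA with 3 or 4 bases between them occurred in 8 of 32 members (25%) and in 14.2% of all genes, and 6 members held a motif of both kinds. In 10 members none of the 4 motifs was found in this window. A match describes the letters and not the binding of a factor.

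The deposited table holds 13614 cells and no key that ties a cell to a library, so all cells were treated as 1 pooled sample and no genotypes or disease states were compared. Each cell name carries 1 of 6 numbers, and cells with the same number form a set. The sets are lettered A to F by size, from 4633 to 809 cells. These sets are not assigned to any library, mouse or group. The values are whole numbers that sum to between 687 and 1578 in every cell, are not UMI counts, and are called deposited values here, so sequencing depth is unknown. A level below is the mean deposited value per cell unless stated otherwise. Since transcripts were counted at their 3′ end, levels were compared between cells and not between genes. No p-value was computed, because cells are not replicates, and the exact (Clopper-Pearson) 95% intervals given for shares of cells cover counting error only.

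Cells were gated from lineage markers that hold no member. Of 13614 cells, 10982 (80.7%) entered a gate. A non-myeloid cell needed values for at least 4 markers of 1 type, and 248 cells were gated as endothelial, with the tight-junction gene Cldn5 at 2.44 against 0.0985 in all other cells. Myeloid cells numbered 10256 and were divided by homeostatic microglia markers, markers of monocyte-derived cells and Apoe. Low-Apoe microglia (1260 cells) had at least 4 of 11 homeostatic markers and an Apoe value under 5, with the purinergic receptor gene P2ry12 at 1.76 against 0.193 in other cells. Raised-Apoe microglia (1000 cells) had the same markers and more Apoe. The Arg1 and F10 gate (804 cells) needed 2 of 8 markers of monocyte-derived cells and fewer than 4 homeostatic markers. Of its cells, 69.4% had a value for AA467197, 59.0% for Arg1, 24.9% for F10 and 1.74% for Vcan. Arg1 and F10 serve as its label only, and a cell of this gate need not have a value for either. The remaining myeloid cells were the very high Apoe cells (2677 cells, Apoe of at least 100), the dividing myeloid cells (145) and the other myeloid cells (4370).

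Gates and sets overlapped in part. Low-Apoe microglia came from sets D (687 cells) and E (559) almost alone, set B gave 90.5% of the Arg1 and F10 cells and 125 of 145 dividing myeloid cells, and set A gave 82.0% of the very high Apoe cells. For these gates a difference between states and a difference between sets cannot be told apart. Endothelial cells came from all 6 sets (45, 47, 38, 28, 63 and 27 cells in sets A to F). Doublets were not removed, and 18 barcodes occurred in 2 sets. A further 221 cells were 1 marker short of a non-myeloid gate and 204 were exactly at it, while 1553 myeloid cells were 1 short of the homeostatic limit and 850 at it.

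Tyrobp, a myeloid adaptor gene, had a value in 94.0% of low-Apoe microglia and in 33.1% of endothelial cells, 39.0% of oligodendrocytes, 31.2% of T or NK cells and 25% of ependymal cells, which should lack it. The endothelial level of 11 myeloid markers is therefore given beside the endothelial values, but the gates used the sum of these markers, so their level in endothelial cells was held low by the gate and does not measure how much myeloid RNA these cells held. Medians of the total deposited value and of the genes with a value were 1064 and 561 in low-Apoe microglia, 1126.5 and 660 in raised-Apoe microglia, 856 and 478 in other myeloid cells and 1045 and 664 in endothelial cells.

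Summed over the 42 members, dividing myeloid cells had the highest level and low-Apoe microglia the lowest of all gates. The member sum was 1.08 in low-Apoe microglia, 3.0 in very high Apoe cells, 3.32 in other myeloid cells, 4.2 in raised-Apoe microglia, 5.09 in Arg1 and F10 cells and 7.81 in dividing myeloid cells. It was 5.04 in endothelial cells, 4.73 in T or NK cells, 2.55 in ependymal cells, 2.00 in pericytes or smooth muscle cells, 1.47 in astrocytes and 1.22 in oligodendrocytes. Among the non-myeloid gates, endothelial and T or NK cells thus stood above the mean of all cells, 3.14, and the other 4 below it. In endothelial cells the sum was 4.82, 6.72, 5.61, 3.43, 3.83 and 6.22 in sets A to F, and in all myeloid cells of the same sets it was 3.01, 5.45, 2.54, 0.963, 0.900 and 2.31. Endothelial cells were above the myeloid cells of their own set in each set, and the lowest endothelial value was below the myeloid value of set B.

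**Figure D1:**
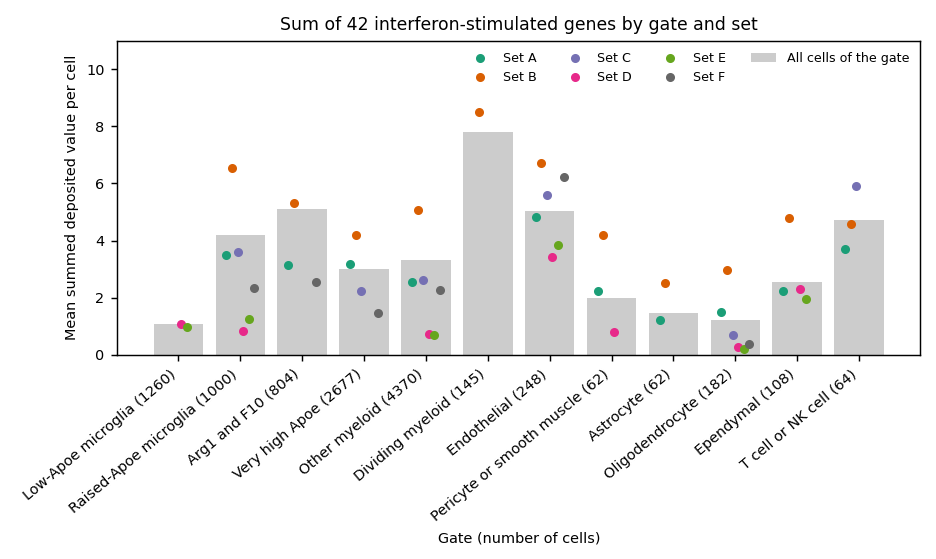
Mean summed deposited value of 42 interferon-stimulated genes per cell (vertical axis) in each gate (horizontal axis, number of cells in brackets), with a bar for all cells of the gate and a point for each set with at least 10 cells there. The bar of low-Apoe microglia stands at 1.08 and that of endothelial cells at 5.04, and set B is the highest point in most myeloid gates.

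The sum rested on few genes. Ifitm3, Lgals3bp, Ifi27l2a and Bst2 made up 46.0% of it, and 27 of the 42 members had a value in fewer than 5% of all cells. A member had a value in between 0.639% and 30.9% of cells. Single genes are therefore described below in the order of their roles.

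**Figure D2:**
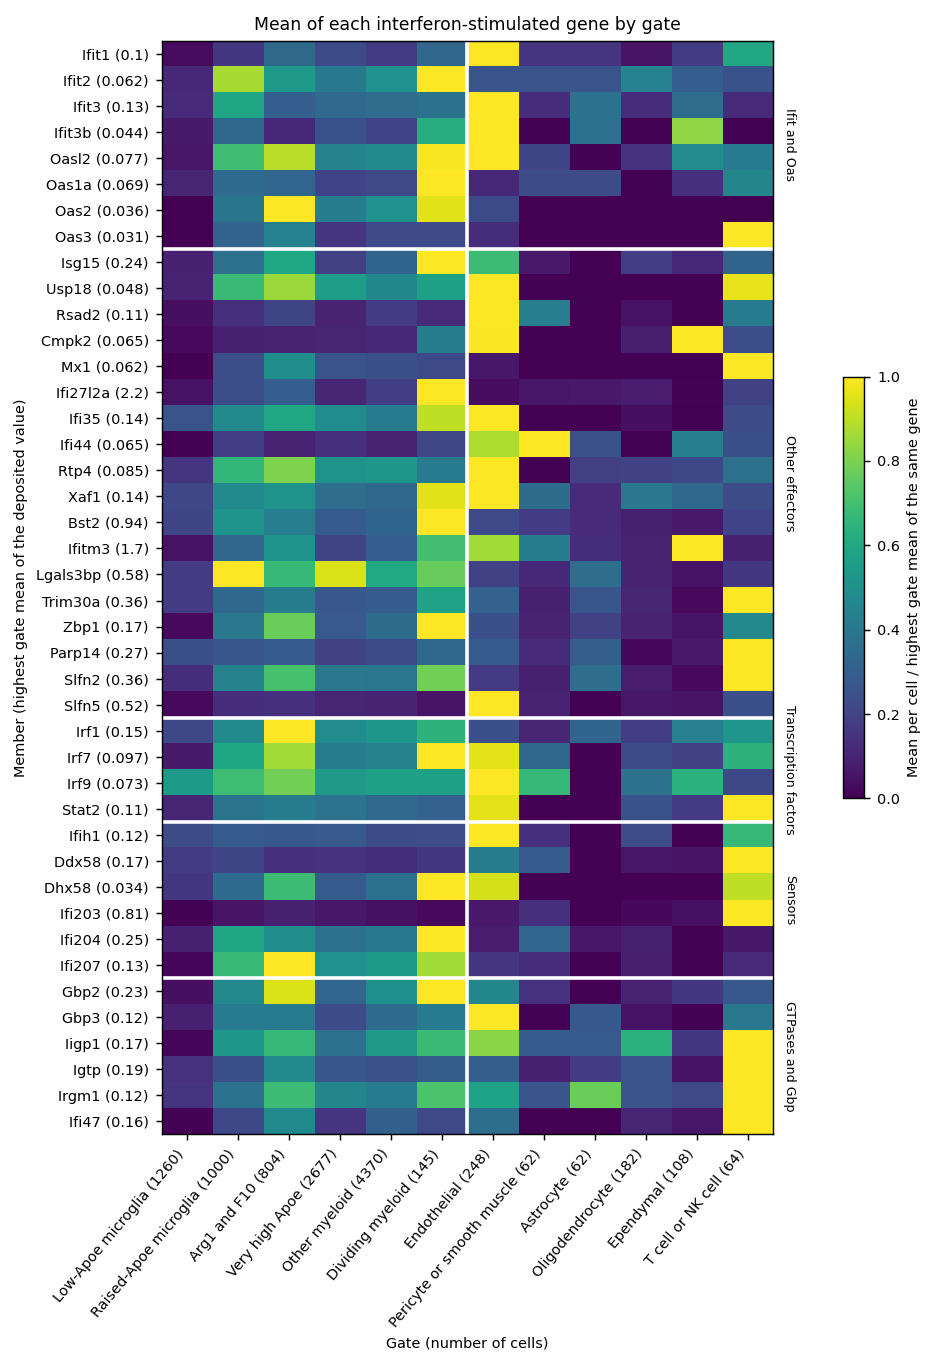
Mean of each member (vertical axis, with its highest gate mean in brackets, grouped by function) in 12 gates (horizontal axis, number of cells in brackets), coloured by the mean divided by the same gene's highest gate mean. The column of low-Apoe microglia is dark for most genes. The gate with the highest mean differs between members, and the share of all genes highest in each gate was not computed.

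Of the Ifit and Oas genes, Ifit1, Ifit3 and Oasl2 had combined means high enough for endothelial cells to be compared with low-Apoe microglia. They were 0.105, 0.129 and 0.0766 in endothelial cells and 0.0032, 0.0159 and 0.0048 in low-Apoe microglia. Ifit1 and Oasl2 reached this level only through their endothelial cells, so these 2 genes could only be called higher. Of all genes tested, 26.7% were called higher. The Ifit and Oas genes summed to 0.391 in endothelial cells, 0.178 in all myeloid cells and 0.041 in low-Apoe microglia. At least 1 of the 8 genes had a value in 23.8% of endothelial cells (18.6 to 29.6%), 14.5% of myeloid cells (13.8 to 15.2%) and 3.10% of low-Apoe microglia (2.21 to 4.21%). Ifit1, which binds RNA that lacks a host cap, had endothelial means of 0.0889, 0.0851, 0.211, 0.0714, 0.0635 and 0.148 in sets A to F. The myeloid means of Ifit1 in the same sets were 0.0210, 0.0287, 0.0174, 0.000967, 0.00233 and 0.0160. No endothelial value of Ifit1 reached down to any myeloid value.

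Ifit3, which acts with Ifit1, was 0.0889, 0.191, 0.158, 0.107, 0.0952 and 0.148 in the endothelial cells of sets A to F. Its myeloid means were 0.0428, 0.0620, 0.0706, 0.0126, 0.00933 and 0.0178, so these did not overlap the endothelial ones either. Ifit3b, a near copy of Ifit3, was 0.0444 in endothelial and 0.00936 in myeloid cells, and reads of the pair may have been divided between them. Oas1a, Oas2 and Oas3 were lower in endothelial than in all myeloid cells, and each had a value in at most 2 endothelial cells. Oas1a was 0.0690 in dividing myeloid cells, 0.0161 in all myeloid cells and 0.00806 in endothelial cells. Oas2 peaked in Arg1 and F10 cells at 0.0361, was 0.00806 in endothelial cells and had a value in 0 of 1260 low-Apoe microglia, which allows a share of up to 0.238%. Oasl2, an oligoadenylate synthetase-like gene, was 0.0766 in endothelial cells, 0.0759 in dividing myeloid cells and 0.0684 in Arg1 and F10 cells. Ifit2 was higher in raised-Apoe microglia (0.0540) and dividing myeloid cells (0.0621) than in endothelial cells (0.0161), so the endothelial levels were not shared by all Ifit genes.

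Of the other effectors, Ifitm3 and Slfn5 stood out in endothelial cells. Ifitm3, which blocks the fusion of viruses in endosomes, was 1.09, 2.40, 1.18, 0.964, 1.21 and 2.07 in the endothelial cells of sets A to F. Its myeloid means were 0.353, 0.897, 0.313, 0.0880, 0.0688 and 0.411, below every endothelial value, and 58.9% of endothelial cells (52.5 to 65.1%) had a value. Ependymal cells had an Ifitm3 mean of 1.71 and a value in 75.0% of cells, the highest of any gate. Slfn5, a member of the schlafen family, was 0.467, 0.511, 0.421, 0.464, 0.619 and 0.556 in endothelial cells of sets A to F, with no set far from the others. In myeloid cells Slfn5 lay between 0.00700 (set E) and 0.0714 (set B), and 37.1% of endothelial cells (31.1 to 43.4%) had a value. Over the pooled cells Slfn2, of the same family, was 0.0605 in endothelial cells, 0.143 in myeloid cells and 0.359 in T or NK cells. Within sets it was higher in endothelial than in myeloid cells in 3 sets and lower in 3.

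Rsad2 and Cmpk2, neighbours in the genome that encode viperin and a mitochondrial nucleotide kinase, were both higher in endothelial cells. Rsad2 was 0.311, 0.0638, 0.158, 0.0357, 0.0317 and 0.0741 in the endothelial cells of sets A to F and at most 0.0300 (set B) in the myeloid cells of a set. Cmpk2 was 0.0645 in endothelial cells, 0.0648 in ependymal cells and 0.00644 in myeloid cells. Isg15, the ubiquitin-like modifier, was 0.156, 0.213, 0.237, 0, 0.127 and 0.259 in endothelial cells and highest in dividing myeloid cells (0.241). Its endothelial values ranged from 0 of 28 cells in set D to the highest of any set in set F, and overlapped the myeloid values of 0.0163 to 0.148.

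Ifi27l2a and Lgals3bp were lower in endothelial than in myeloid cells. Ifi27l2a, a small membrane protein gene, was 2.16 in dividing myeloid cells, 0.642 in Arg1 and F10 cells, 0.516 in raised-Apoe and 0.102 in low-Apoe microglia, 0.422 in T or NK cells and 0.0685 in endothelial cells. Its raised-Apoe values were 0.241, 1.10, 0.298, 0.0938, 0.250 and 0.163 in sets A to F, so set B was high and set D was at the level of low-Apoe microglia. Lgals3bp, a secreted glycoprotein gene, was 0.585 in raised-Apoe microglia and 0.555 in very high Apoe cells, lower in Arg1 and F10 cells (0.393), and 0.104 in low-Apoe microglia and 0.113 in endothelial cells. Bst2, or tetherin, was 0.938 in dividing myeloid cells, 0.485 in raised-Apoe microglia, and nearly level between low-Apoe microglia (0.198) and endothelial cells (0.206). Mx1, a dynamin-like antiviral GTPase, and Ifi44 had no value in any low-Apoe microglia, and in endothelial cells they were 0.00403 and 0.0565.

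The 4 transcription factors summed to 0.306 in endothelial cells, 0.199 in all myeloid cells and 0.0905 in low-Apoe microglia. Irf7, which amplifies type I interferon expression, was 0.133, 0.106, 0.184, 0.0714, 0.0317 and 0.0370 in endothelial cells of sets A to F, and 0.0071 in low-Apoe microglia. Stat2, the STAT of ISGF3 that IFNγ does not need, was 0.267, 0.0638, 0.158, 0.0714, 0.0317 and 0.0370 in the same cells and 0.0111 in low-Apoe microglia. Both genes ranged widely between sets, and set A or C was highest. Irf9, the DNA-binding part of ISGF3, differed little, with 0.0726 in endothelial cells and 0.0397 in low-Apoe microglia. Irf1, a typical IFNγ target, was lower in endothelial cells (0.0363) than in Arg1 and F10 cells (0.149), its highest gate.

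Among the sensors, the RNA helicases and the p200 family genes had different distributions. Ifih1, which encodes MDA5, was 0.117 in endothelial cells, 0.0781 in T or NK cells and 0.0295 in myeloid cells, and its endothelial values ran from 0 in set F to 0.237 in set C. Ddx58, which encodes RIG-I, was 0.0726 in endothelial cells, 0.172 in T or NK cells and 0.0254 in myeloid cells. The p200 genes Ifi204 and Ifi207 were low in endothelial cells (0.0202 each) and higher in myeloid cells (0.0968 and 0.0669). Ifi203 was 0.812 in T or NK cells, with 0.688, 0.643 and 1.16 in sets A, B and C, and 0.0404 in myeloid cells. A value for Ifi203 was present in 53.1% of T or NK cells (40.2 to 65.7%). These 3 genes are near copies that may share reads, so the division between them is uncertain.

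The GTPases and Gbp genes summed to 0.548 in endothelial cells, 0.347 in all myeloid cells and 0.0698 in low-Apoe microglia, and were high in T or NK cells (0.750) and in Arg1 and F10 cells (0.628). At least 1 of the 6 genes had a value in 32.7% of endothelial cells, 46.4% of Arg1 and F10 cells, 39.1% of T or NK cells and 5.95% of low-Apoe microglia. Gbp2, a guanylate-binding protein, was 0.228 in dividing myeloid cells, 0.215 in Arg1 and F10 cells, 0.105 in endothelial cells and 0.0095 in low-Apoe microglia. Gbp3 was 0.0889, 0.170, 0.0789, 0.107, 0.127 and 0.111 in endothelial cells of sets A to F, all above its highest myeloid value of 0.0687 (set B). Iigp1 was 0.2, 0.255, 0.158, 0.0357, 0.0635 and 0.111 in endothelial cells, and its myeloid mean ranged from 0 (set E) to 0.143 (set B). Igtp, Irgm1 and Ifi47 had their highest means in T or NK cells, at 0.188, 0.125 and 0.156, and were 0.0565, 0.0726 and 0.0565 in endothelial cells. Gbp2 and Gbp3, and the immunity-related GTPases, are similar enough that reads may have been shared.

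The balance between both groups differed between gates. The sum of the Ifit and Oas genes divided by that of the GTPases and Gbp genes was 0.713 in endothelial cells, 0.705 in raised-Apoe microglia, 0.591 in low-Apoe microglia, 0.404 in Arg1 and F10 cells and 0.25 in T or NK cells. It ranged from 0.511 to 1 over the sets of endothelial cells and from 0.432 to 0.897 over those of all myeloid cells, so these gates overlapped. In T or NK cells it was 0, 0.278 and 0.438 in sets A, B and C, below every endothelial set, on 64 cells in all. Ependymal cells had a ratio of 1.5, on low sums.

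Endothelial cells were next compared gene by gene with low-Apoe microglia, the gate with the lowest member sum. A gene was tested when its mean over the cells of both gates combined was at least 0.01, and called when the means differed by 2-fold or more. A gene at 0 in one gate counts as past the fold. Of 31 members tested, 22 were called higher in endothelial cells and 0 lower, where 26.7% of all 8526 genes tested were higher and 18.4% lower. The other 11 members were below the floor, and a member low in microglia could pass only through its endothelial cells. The median fold was 6.67 over the members tested and 1.11 over all genes tested. Calls were 3 of 3 for Ifit and Oas genes, 9 of 15 for other effectors, 2 of 4 for transcription factors, 3 of 4 for sensors and 5 of 5 for GTPases and Gbp genes. Without any floor, 40 of 42 members had a higher mean in endothelial cells (55.1% of 16123 genes). The exceptions were Ifi27l2a and Ifi204, the latter at 0.0202 and 0.0222.

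As low-Apoe microglia came from sets D and E, the comparison was repeated within each. In set D, with 28 endothelial cells, 13 of 23 members tested were higher and 5 lower (29.9% and 37.3% of all genes). In set E, with 63 endothelial cells, 14 of 25 were higher and 2 lower (27.9% and 28.4%). With a floor of 0.05 in place of 0.01, only 8 members could be tested, and 3 were higher and 0 lower (19.2% and 22.4% of all genes).

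Against all myeloid cells of the same set, the member sum of endothelial cells was 1.60, 1.23, 2.21, 3.56, 4.25 and 2.69 times as high in sets A to F, and 1.55 times over the pooled cells. The Ifit and Oas genes had the ratios 2.23, 1.77, 2.90, 6.99, 8.50 and 4.51, and the GTPases and Gbp genes 2.01, 1.5, 2.60, 3.92, 9.72 and 2.35. Both groups, and the other effectors, were above 1 in all 6 sets, while the transcription factors (0.849 in set B and 0.844 in set F) and sensors (0.470 in set B) were not. The median ratio of the 11 myeloid markers was 0.201, 0.190, 0.206, 0.0780, 0.0465 and 0.0849 in sets A to F, and the highest single marker reached 0.431 (set C). As these markers set the gates, their low ratio is no finding. The part that myeloid RNA had in the endothelial levels was not tested. In the 166 endothelial cells with no value for Tyrobp, the member sum was 1.56 times that of all myeloid cells.

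**Figure D3:**
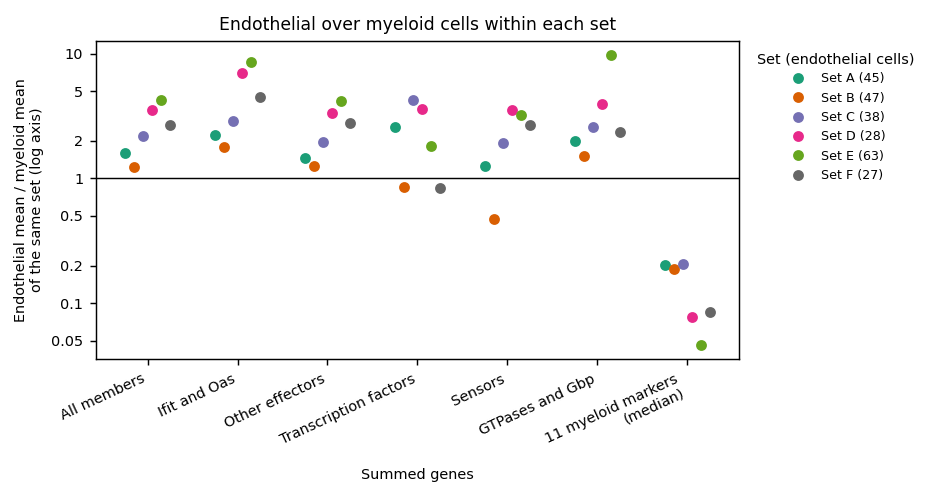
Mean of summed genes in endothelial cells divided by the mean in the myeloid cells of the same set (vertical axis, log scale) for all members, the 5 functional groups and the median of 11 myeloid markers (horizontal axis), with a point per set and the number of endothelial cells in the key. All 6 points of the Ifit and Oas genes and of the GTPases and Gbp genes lie above 1, and the points of the myeloid markers, which set the gates, lie at 0.206 or below.

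By single genes, 12 of 42 members were higher in endothelial than in myeloid cells in each of the 6 sets. They were Ifit1, Ifit3, Rsad2, Cmpk2, Ifitm3, Slfn5, Irf7, Stat2, Ddx58, Gbp3, Iigp1 and Ifi47. Among the 39 members with a pooled mean of at least 0.01 there were 11 such genes, and among all 8861 genes 13.9%. Ifi27l2a and Lgals3bp were lower in every set (11.9% of all genes). Over the pooled cells 17 of 39 members were at least 2-fold higher (22.5% of all genes) and 8 at least 2-fold lower (20%), so members went both ways, and the lower share was that of all genes.

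Over the pooled cells, most members tested were at least 2-fold higher in each myeloid state than in low-Apoe microglia. As low-Apoe microglia had the lowest member sum, a member low there, such as Ifi47 (0.00079) or Ifi207 (0.0016), could pass the floor only through the other gate and could then only be called higher. Raised-Apoe microglia had 26 of 33 members tested higher (13% of all genes), with a median fold of 4.65 against 1.07 over all genes. Arg1 and F10 cells had 34 of 38 higher (15.7%) and a median fold of 5.15. Very high Apoe cells had 26 of 36 higher (21.1%), other myeloid cells 29 of 38 (10%) and dividing myeloid cells 26 of 30 (18.6%). In none of the 5 states was a member 2-fold lower, where between 4.6% and 18.2% of all genes were. Without a floor, and counting a difference of any size, the mean was higher for 42 of 42 members in raised-Apoe microglia (61.6% of all genes), 41 in Arg1 and F10 cells (56.4%), 39 in very high Apoe cells (64.9%), 40 in other myeloid cells (51.5%) and 41 in dividing myeloid cells (45.2%). Ddx58, at 0.0302 in low-Apoe microglia, was lower in all states but raised-Apoe microglia, with 0.0224 in other myeloid cells. These counts depended on single sets. Without set B, which left 76 Arg1 and F10 cells, 15 of 22 members tested were higher there and 2 lower (19.9% and 22.1% of all genes). Of the dividing myeloid cells 20 were left, with 8 of 21 members higher and 5 lower (24.2% and 46.3%), and in other myeloid cells 19 of 33 were higher and 0 lower (7.34% and 12.6%). Without set A, which left 483 very high Apoe cells, 15 of 29 members were higher and 1 lower there (6.52% and 31.2%).

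Sets D and E held both low-Apoe and raised-Apoe microglia. There more members were called lower than higher in raised-Apoe microglia, on few cells, and the same was true of all genes. The member sum of raised-Apoe microglia was 0.812 in set D (32 cells) and 1.25 in set E (20 cells), beside 1.09 and 0.982 in low-Apoe microglia of the same sets. In set D 3 of 21 members were higher and 11 lower (14.5% and 40.1% of all genes), and in set E 5 of 20 were higher and 10 lower (17.3% and 49.9%). In sets A, B, C and F the sum of raised-Apoe microglia was 3.48, 6.56, 3.60 and 2.32. The sum in raised-Apoe microglia therefore varied with the set, and too few low-Apoe microglia lay in sets A, B, C and F for a comparison there.

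Within set B, where the Arg1 and F10 and dividing cells could be set beside raised-Apoe microglia, the members hardly differed as a list. The sums were 5.31 in Arg1 and F10 cells, 6.56 in raised-Apoe microglia and 8.50 in dividing myeloid cells. Arg1 and F10 cells had 3 of 40 members higher (Ifit1, Oas2 and Mx1; 11.1% of all genes) and 3 lower (Ifit2, Ifit3 and Ifi44; 6.96%). Dividing myeloid cells had 4 of 42 higher (Ifit1, Oas2, Cmpk2 and Ifi27l2a; 15.3%) and 3 lower (Ifit3, Rtp4 and Slfn5; 15.7%). Ifi27l2a accounted for much of the excess of the dividing cells, at 2.21 against 1.10. Very high Apoe cells of set A had 0 of 39 members higher (5.7%) and 1 lower, Ifit2 (1.59%). In set C they had 1 higher, Ifi203 (12.8%), and 8 lower (26.6%). All these shares were near or below those of all genes.

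The member sum was highest in set B in all myeloid cells, raised-Apoe microglia and endothelial cells, while the counts of single genes highest there differed. In all myeloid cells the highest mean lay in set B for 34 of 38 members, where set B held the highest mean of 16.8% of all genes. In raised-Apoe microglia alone it was set B for 30 of 41 members (13.3% of all genes), set C for 6 (14.7%), set A for 4 (19.9%) and set E for 1 (22.4%). In endothelial cells the highest means were spread over the sets, with set B highest for 11 of 38 members (16.2% of all genes), set C for 11 (12.6%), set F for 7 (22.5%), set A for 4 (15.3%), set D for 3 (19.7%) and set E for 2 (13.8%). Lgals3bp was one of the exceptions in myeloid cells, with 0.552 in set A and 0.423 in set B. Which mice gave set B is not known.

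**Figure D4:**
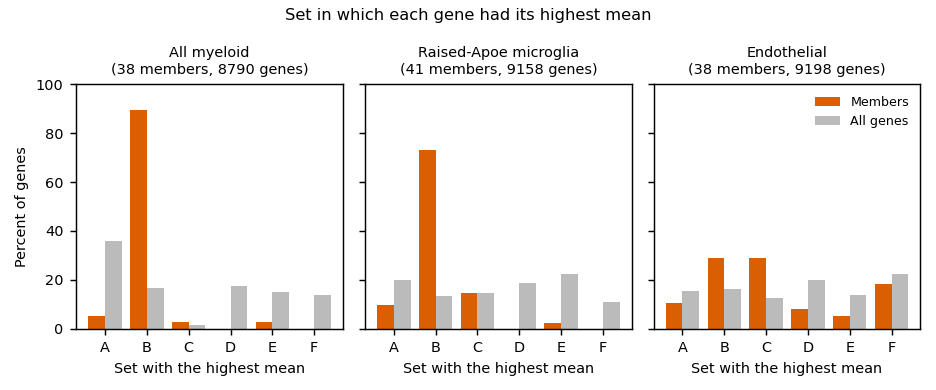
Percent of genes (vertical axis) whose highest mean lay in each of the 6 sets (horizontal axis) in all myeloid cells, raised-Apoe microglia and endothelial cells (panels), for members and for all genes. Set B holds the highest mean of 34 of 38 members in all myeloid cells and of 11 of 38 in endothelial cells.

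T or NK cells, gated on 64 cells, had 16 of 38 members at least 2-fold higher than all myeloid cells (30.8% of all genes) and 7 lower (30.1%). T or NK cells came from sets A, B and C almost alone, and within these sets the balance differed. In set A (16 cells) 11 of 37 members were higher and 19 lower (32.4% and 50.7% of all genes), in set B (28 cells) 7 of 40 were higher and 15 lower (32.9% and 41.5%), and in set C (19 cells) 19 of 39 were higher and 11 lower (37.5% and 44.3%). The member sum was 1.23, 0.839 and 2.32 times that of the myeloid cells of sets A, B and C. Over the pooled cells the sensors led, at 1.12 in T or NK cells against 0.271, through Ifi203 above all. Trim30a and Slfn2 were each at 0.359, Parp14 at 0.266 and Stat2 at 0.109, while Ifit3 was at 0.0156 and Ifit3b and Oas2 had no value. Ependymal cells had 1 of 38 members higher, Ifitm3 (27.2%), and 25 lower (29.9%). Within sets, the member sum of ependymal cells was 0.743 and 0.877 times that of myeloid cells in sets A and B (17 and 18 cells) and 2.38 and 2.17 times in sets D and E (24 and 40 cells), where myeloid cells were low. The ratio of the Ifit and Oas genes was 1.73, 1.16, 2.33 and 3.57 in these 4 sets, against 0.938 over the pooled cells. In pericytes or smooth muscle cells 12 members, in astrocytes 20, in ependymal cells 11 and in oligodendrocytes 8 had no value in any cell. With 62 cells each, the absence of a member from pericytes and astrocytes allows a share of up to 4.84%.

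Many members could be present in the same cell. A value for at least 8 of the 42 members was found in 23 endothelial cells (9.27%, 5.97 to 13.6%), spread over all 6 sets (5, 8, 4, 1, 1 and 4 cells). It was found in 290 myeloid cells (2.83%, 2.52 to 3.17%), of which 236 were in set B, and in 7 low-Apoe microglia (0.556%). The share was 13.1% in dividing myeloid cells, 9.38% in T or NK cells, 7.71% in Arg1 and F10 cells and 5.8% in raised-Apoe microglia, so the endothelial share was not the highest. The cell with the most members, 28, was endothelial. Of 59 endothelial cells with an Ifit or Oas gene, 59.3% (45.7 to 71.9%) also had a GTPase or Gbp gene, against 24.3% (18.4 to 31.1%) of 189 cells without one, and median numbers of genes with a value were 716 and 662. In the myeloid cells of set B the same shares were 50.2% (46.4 to 54.0%) and 44.2% (42.1 to 46.2%), with medians of 613 and 555 genes. The gap between the shares was wider in endothelial cells, where cells of 6 sets were pooled, but that difference was not tested, nor was the part of the number of genes per cell.

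Isg15, a sensitive mark of the type I response, was used to ask which members occurred in the same cells of set B. Of its myeloid cells, 363 had a value for Isg15 and 2636 had none, with medians of 615 and 565 genes. Ifit3 had a value in 10.7% (7.76 to 14.4%) of cells with Isg15 and 4.32% (3.58 to 5.17%) of cells without. Ifit2 had one in 8.26% and 3.60%, and Gbp3 in 11.6% and 5.50%. Iigp1 had one in 11.3% of cells with Isg15 and 11.6% of cells without, and Igtp in 6.61% and 7.78%. The median ratio of the shares in set B was 1.70 over the Ifit and Oas genes, 1.21 over the GTPases and Gbp genes and 1.09 over the myeloid markers Laptm5 and Csf1r. The Ifit and Oas ratio and the GTPase and Gbp ratio were 1.93 and 1.35 in set A and 4.98 and 3.28 in set C. In set F they were 1.61 and 2.66, in set D 7.33 and 0 and in set E both 0, so their order varied. In set A, the largest set, with 159 myeloid cells with Isg15 and 3554 without, Ifit3 (6.92% and 3.8%) and Ifit2 (5.03% and 2.39%) were again more frequent beside Isg15. Gbp3 was less frequent beside Isg15 in set A (1.26% and 2.22%). Iigp1 (8.18% and 6.02%) and Igtp (7.55% and 4.47%) were more frequent there. Each of these 3 genes thus went the other way than in set B. In endothelial cells, of which 27 had a value for Isg15 and 221 had none, Iigp1 had a value in 29.6% (13.8 to 50.2%) and 7.69% (4.54 to 12%), and so did Ifit3. The myeloid marker Csf1r had one in 14.8% and 9.05% of these cells.

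**Figure D5:**
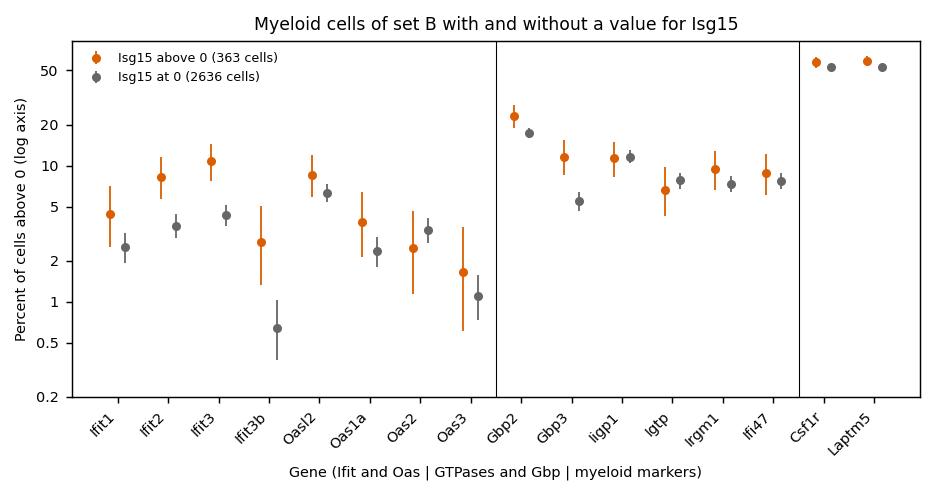
Percent of set B myeloid cells with a value above 0 (vertical axis, log scale) for Ifit and Oas genes, GTPases and Gbp genes and myeloid markers (horizontal axis), in 363 cells with and 2636 cells without a value for Isg15, with exact 95% intervals that cover counting error only. Ifit3 stands at 10.7% and 4.32%, while Iigp1 stands at 11.3% and 11.6%.

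Of the wider interferon pathway, a list of 43 genes was examined, of which 39 were in the table. The list was chosen with earlier results of these data known. In endothelial cells against low-Apoe microglia, 10 of 29 pathway genes tested were higher and 10 lower, where 26.7% and 18.4% of all genes were. Sets D and E hold nearly all low-Apoe microglia. Within set D 6 of 27 were higher and 13 lower (29.9% and 37.3% of all genes). Within set E 5 of 27 were higher and 12 lower (27.9% and 28.4%). Among the receptors, Ifnar1 was higher (0.157 and 0.0397), and both chains of the IFNγ receptor were lower, with Ifngr1 at 0.0484 against 0.581 and Ifngr2 at 0.0161 against 0.168. The factors Irf8 (0.0363 against 0.348) and Irf5 (0.0121 against 0.144), of which Irf8 is a lineage factor of myeloid cells, were lower. Of the inducers, 4 of 5 were lower, among them Tmem173, which encodes STING (0.0121 against 0.223), and Tlr7 (0.00403 against 0.0968). Of 12 further interferon-induced genes tested, 6 were higher, such as Gbp7 (0.157 against 0.0452) and the p200 gene Mndal (0.0766 against 0.0024), and 1 was lower over the pooled cells. Within set D, and likewise within set E, 1 of 10 was higher and 4 were lower. The shares of all genes were 29.9% and 37.3% in set D and 27.9% and 28.4% in set E. The pooled count of higher genes was not seen there, on 10 genes and on 28 and 63 endothelial cells.

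In raised-Apoe microglia 18 of 35 pathway genes tested were higher than in low-Apoe microglia and 0 lower over the pooled cells (13% and 4.6% of all genes), and 14 of these were further interferon-induced genes. Within set D 4 of 25 were higher and 7 lower (14.5% and 40.1% of all genes). Within set E 3 of 27 were higher and 11 lower (17.3% and 49.9%). Over all genes, too, lower calls outnumbered higher ones in both sets. Over the pooled cells no receptor or inducer passed 2-fold in either direction, and both brakes, Socs1 and Socs3, were higher (0.0200 and 0.0380 against 0.0040 each). In Arg1 and F10 cells, mostly of set B, 19 of 34 were higher and 6 lower (15.7% and 12.7% of all genes). The chemokine gene Cxcl10 was 0.173 there and had a value in 1 low-Apoe microglia. H2-K1, a class I antigen-presenting gene, was 2.94 in T or NK cells, 2.03 in raised-Apoe microglia, 0.766 in endothelial cells and 0.267 in low-Apoe microglia. Ifng itself had a mean of 0.0156 over the 64 T or NK cells, which came from 1 cell. It had no value in endothelial cells or low-Apoe microglia.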

How the data were processed

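Per the methods, Cell Ranger 7.1.0 was run by the authors with the mouse build GRCm38 and intronic reads, and cells were merged and filtered with Seurat 4.3.0.1. They deposited 1 table of 13614 cells and 18792 genes, whose whole-number values were treated as a score, since their totals per cell (687 to 1578) are too even for UMI counts and the step that made them is not given in the sources used here. Depth per cell is therefore unknown, and the reported intervals cover only the sampling of cells. Such values can alter low levels most, so no count model was used.

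All cells were used. The members and all lists were chosen with earlier results of these data known. Gates were set from marker lists, with thresholds fixed after the markers, but not the members, had been seen. A non-myeloid gate needed at least 4 markers of 1 type, more than of any other type, and a summed value under 20 for 11 myeloid markers. A myeloid cell needed at least 20 and at least 7 of these markers. Dividing cells had 3 proliferation markers. Ly6c1, Sparc, Lyz2, Fn1, Plac8, Ly6c2, Mbp and Mobp, among other broadly detected markers, were left out of the gates, and the marker genes Lyve1, Mzb1 and Pmp2 were not used.

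Genes were compared as the ratio of 2 means, called at 2-fold among genes with a mean of at least 0.01, and the calculation was tested on simulated data. Set values needed at least 10 cells. A count test between the EAE libraries of both genotypes had been planned and was not made, because cells are not tied to libraries and the values are not counts. The text names, in each group and comparison, the members with the highest means and the largest folds either way, those missing or at 0, and pathway genes of a fixed list, of which some are not reported here. Comparisons with all myeloid cells, within sets and by co-occurrence were chosen after seeing the data. Alternatives were other scales, gates, cells, weights, folds and floors, clusters in place of gates, and leaving out each set. Computations used Python 3.11.15, numpy 2.4.6, scipy 1.17.1, pandas 2.3.3, scikit-learn 1.9.0, leidenalg 0.10.2 and matplotlib 3.10.9.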

Additional observations from a re-analysis of the deposited data

How the results depend on the processing

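Over 23 values and 17 alternatives, 270 of 287 recomputed values stayed within 1.5 times the reported one and 17 did not. A change of direction was looked for in the ratios only, not in the counts of members, and 0 were found. The comparisons within sets were not among these alternatives. Within set D the member sum was 0.812 in raised-Apoe and 1.09 in low-Apoe microglia, and within set E it was 1.25 and 0.982. Leaving out each set in turn, the ratio of endothelial to all myeloid cells ran from 1.48 to 1.98 for all members, 2.05 to 2.75 for Ifit and Oas genes, 1.46 to 1.95 for other effectors, 1.26 to 2.14 for transcription factors, 1.06 to 1.62 for sensors and 1.43 to 2.06 for GTPases and Gbp genes. The ratio of the member sum to low-Apoe microglia ran from 2.86 to 4.26 in raised-Apoe microglia, 2.85 to 4.86 in Arg1 and F10 cells, 2.08 to 2.92 in very high Apoe cells, 2.00 to 3.31 in other myeloid cells and 3.38 to 7.48 in dividing myeloid cells, and the lowest values of the Arg1 and F10, other and dividing myeloid cells came without set B. Members at least 2-fold higher than in low-Apoe microglia numbered 20 to 28 in endothelial cells, 21 to 31 in raised-Apoe microglia, 15 to 34 in Arg1 and F10 cells, 15 to 27 in very high Apoe cells, 19 to 30 in other myeloid cells and 8 to 27 in dividing myeloid cells. Members at least 2-fold lower numbered 0 to 1 in endothelial cells, 0 to 2 in Arg1 and F10 cells, 0 to 1 in very high Apoe cells and 0 to 5 in dividing myeloid cells. With a floor of 0.05, under which fewer members could be tested, 3 members were higher in endothelial cells (of 8 tested), 8 in raised-Apoe microglia (of 10), 14 in Arg1 and F10 cells (of 15), 7 in very high Apoe cells (of 11), 10 in other myeloid cells (of 14) and 6 in dividing myeloid cells (of 7). At this floor the share of all genes higher was 19.2% for endothelial cells and was not computed for the myeloid states. For most settings behind the ranges above it was not computed either. These counts therefore show only how far the calls moved with the setting, and do not compare members with all genes. With clusters in place of gates the endothelial ratio was 1.28 in place of 1.55, and 12556 cells met the filters stated for the Nd6 data. Endothelial cells with no Tyrobp value were an alternative chosen after seeing the data. No paired analysis was possible because no cell could be tied to a mouse, a library or its replicate number. The comparisons within sets do not pair mice. The planned test of Nd6 against WT EAE libraries and its alternatives were not run. The limit set by depth was not assessed, as depth is unknown.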
